A study of Danio rerio with 2 samples.

Results

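Glucagon, insulin and the pancreatic factor pdx1 gave more signal in zebrafish embryos injected with MO2-ers2a than in those injected with MO-control, by 1.65- to 2.14-fold at 48 hours post fertilization (hpf), whereas the somatostatin gene sst1.1 gave 1.32-fold less. The glucagon and pdx1 values each rest on 1 measured spot of 2. The glucagon value lay outside the range of most measured spots of like brightness, whereas the insulin, pdx1 and sst1.1 values lay inside theirs. The acinar factor gene ptf1a and the enzyme genes prss1 and ela2l differed by at most 1.08-fold at that time. Of these, ela2l had a control signal only just above the detection limit, and prss1 was nearly level between 8 and 48 hpf. The brighter pdx1 spot was nearly level too, and already gave signal at 8 hpf, before a pancreas exists. Related genes did not follow this split. The 2 other listed acinar enzyme genes that were measured, prss59.1 and cela1.4, were 1.45- and 1.54-fold higher, each from 1 measured spot. In MO-control embryos the normalized level of both was higher at 8 hpf than at 48 hpf. Other listed genes of islet hormones and hormone processing had a median log2 ratio of -0.21, against -0.02 over all measured genes and transcripts. Only 8 of these 26 were measured, and which tissue their signal came from was not tested. The main genes described are 10 of the 35974 genes and unnamed transcripts on the array, chosen by name. The endocrine ones, 4 in number, are gcga, insa, sst1.1 and pdx1, and the exocrine ones, 6 in number, are ptf1a, prss1, ela2l, cpa5, ctrb1 and cel.1. All 10 were found on the array, with 14 spots between them. The array design names gcga as zgc:103616, insa as ins, sst1.1 as sst1 and prss1 as try, and ctrb1 now carries the symbol ctrb.1. Older names were matched through the RefSeq genes of the GRCz12tu assembly.

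Each ovulated egg of Danio rerio was injected with 10.3 ng of a morpholino, an antisense oligonucleotide, either MO2-ers2a, which blocks translation of the estrogen receptor beta2 transcript, or MO-control. Embryos were fixed at 8 hpf (gastrula) or 48 hpf, and total RNA of MO2-ers2a embryos in Cy5 was hybridised together with that of MO-control embryos in Cy3. There was 1 array per time and no dye swap, so no test between conditions was possible, no value has a replicate error, and a dye effect on a single probe cannot be told apart from a difference between the morpholinos. The sources used here give neither the strain nor the number of embryos per RNA sample. A morpholino acts for a limited time and its target transcript need not fall, and both esr2a spots were too dim for a ratio at either time. RNA came from whole embryos, so fewer cells of a type and less RNA per cell cannot be told apart.

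The zebrafish pancreas has an endocrine part, the islet, whose cells secrete peptide hormones into the blood, and an exocrine part, whose acinar cells secrete digestive enzymes into the gut. The first islet cells arise from dorsal endoderm that expresses pdx1, and a later ventral bud supplies exocrine tissue under the control of ptf1a. Hormone genes are thus switched on before most digestive enzyme genes, and a gastrula has no pancreas. Several of these genes are also used elsewhere: sst1.1 in the brain, gcga and pdx1 in the gut, and ptf1a in the hindbrain, cerebellum and retina.

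A spot counted as measured when its signal above local background was, in both channels, more than 2.6 SD above the mean of the 153 negative controls. At 8 hpf the limits were 24.4 (Cy5) and 59.9 (Cy3), and at 48 hpf they were 27.7 and 70.1. Of all spots other than controls, 44.4% were measured at 8 hpf and 47.9% at 48 hpf. Of the 14 spots of the pancreatic genes, 5 were measured at 8 hpf and 8 at 48 hpf, for 5 and 7 of the 10 genes. Cy5 was the brighter dye on both arrays. The median raw Cy5 over Cy3 ratio of measured spots was 1.85 at 8 hpf and 1.49 at 48 hpf. Loess normalization removed this offset from the log2 ratios reported as main values. Alternative ratios below that were centred on all spots, on measured spots or on the spike-in spots had no loess. Spots of the same gene differed by a pooled SD of 0.32 (8 hpf) and 0.24 (48 hpf) on the log2 scale. This is a measure of spread within an array. It can hold differences between probes of a gene as well as technical noise, since repeats of 1 probe cannot be told from different probes.

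**Figure D1:**
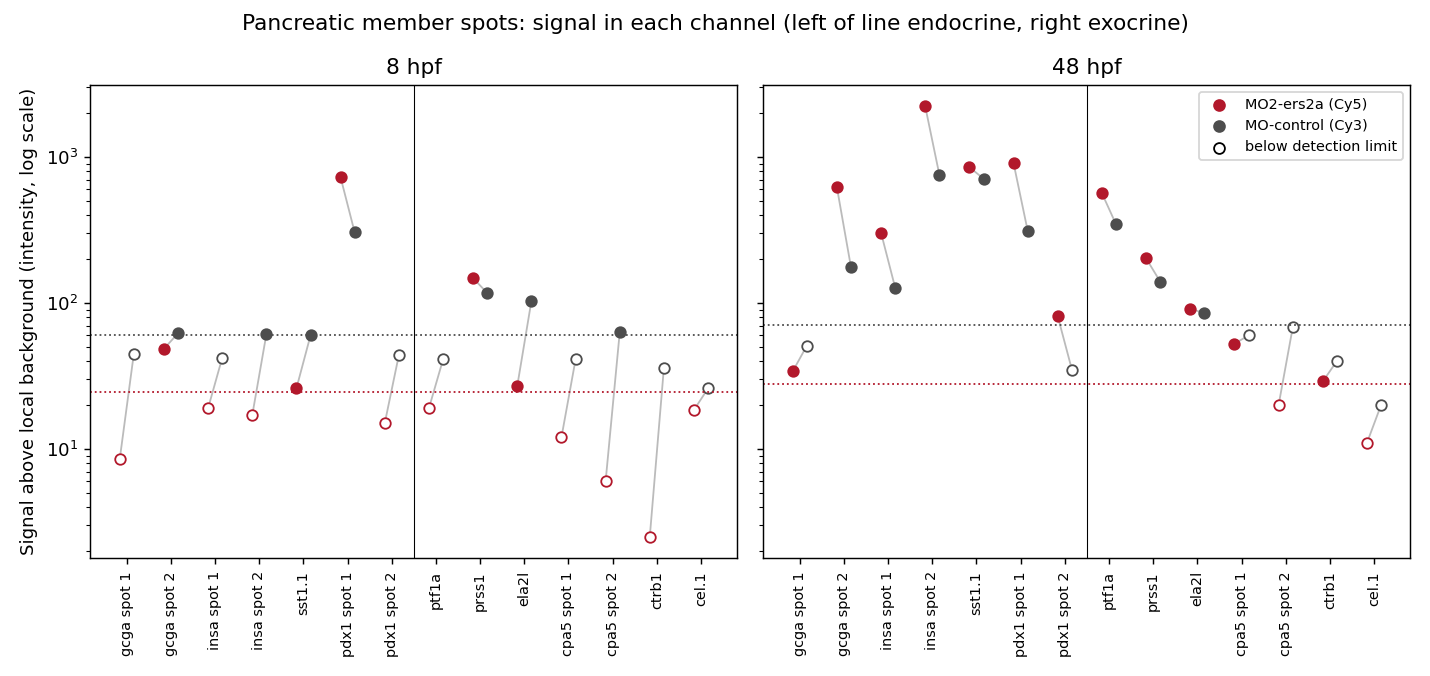
Signal above local background (intensity, log axis) of every spot of the 10 pancreatic genes at 8 and 48 hpf, MO2-ers2a in red and MO-control in grey, with 1 array per time and no error bars. Dotted lines are the detection limits of each channel (24.4 and 59.9 at 8 hpf, 27.7 and 70.1 at 48 hpf), and open points lie below them. At 48 hpf the endocrine spots are mostly well above the limits, while cpa5, ctrb1 and cel.1 lie near or below them.

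At 48 hpf, 3 of the 4 endocrine genes stood above 0 and 1 below, with a median log2 ratio of 0.77, against -0.02 over all 16630 measured genes and transcripts. 1 of the 4, gcga, was at least 2-fold higher. Over all measured genes and transcripts, 1.27% reached 2-fold upward and 1.25% downward, while 47.9% lay above 0 and 52.1% below. With 1 gene of 4 past this size, the count describes gcga and not a group.

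gcga encodes proglucagon, the precursor of the hormone that raises blood glucose. Its brighter spot had a signal above background of 619.0 in MO2-ers2a embryos and 175.0 in MO-control embryos, a raw ratio of 3.54, where spots of like brightness had a median raw ratio of 1.53. After normalization the log2 ratio was 1.1, or 2.14-fold. Of the 1000 measured spots closest to it in brightness, 1.70% stood higher, and their middle 95% ran from -0.77 to 0.999. The other gcga spot was dim, with 34 in MO2-ers2a embryos and 51.0 in MO-control embryos, and its control signal was below the detection limit. Its log2 ratio was 0.06, where the authors' deposited table gave 1.23 for this spot. In the main processing the 2-fold difference therefore rests on 1 spot. Taking both spots into the median put gcga at 0.58, below 2-fold, and centring on the spike-in spots put it at 0.92.

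insa encodes preproinsulin, made by the beta cells of the islet. Both of its spots were measured at 48 hpf and lay on the same side. The brighter had 2218.0 in MO2-ers2a embryos and 755.0 in MO-control embryos, and the dimmer had 302.0 in MO2-ers2a embryos and 127.0 in MO-control embryos. Their log2 ratios were 0.79 and 0.65, which differ from each other by less than the pooled SD between spots. The median of the spots was 0.72, or 1.65-fold, and 3.31% of all measured genes and transcripts stood higher. Measured spots closest in brightness to the brighter spot had a middle range, taken as for gcga, of -0.83 to 0.91. For the dimmer spot it was -0.79 to 0.77. Both insa spots lay inside these ranges, and 3.7% and 4.8% of the like spots stood higher. This gene did not reach 2-fold unless ratios were centred on all spots, which gave 1.13.

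pdx1 encodes a homeodomain factor of pancreatic progenitors that also acts on the insulin gene in mammalian beta cells. Its brighter spot had 905.5 in MO2-ers2a embryos and 311.5 in MO-control embryos at 48 hpf, and the log2 ratio was 0.82, or 1.77-fold. Of the spots closest in brightness, 3% stood higher. The pdx1 value lay inside their middle range, taken as for gcga, of -0.76 to 0.89. The dimmer pdx1 spot had 81.0 in MO2-ers2a embryos and 35.0 in MO-control embryos and was below the limit in the control. Its log2 ratio of 0.87 lay on the same side, but no ratio is drawn from it. With centring on all spots pdx1 passed 2-fold, at 1.27. At 8 hpf, before a pancreas exists, the brighter spot already had 725.5 in MO2-ers2a embryos and 304.0 in MO-control embryos. Which tissue its 48 hpf signal came from was not tested.

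sst1.1 encodes a somatostatin precursor, made by the delta cells of the islet and by neurons, which inhibits the release of other hormones. It stood apart from the other endocrine genes. Its 1 spot had 852.0 in MO2-ers2a embryos and 709.5 in MO-control embryos, a raw ratio of 1.2, against a median of 1.64 for spots of like brightness. The log2 ratio was therefore -0.40, or 1.32-fold lower, and 86.0% of all measured genes and transcripts stood higher. This value lay inside the middle range of spots of like brightness, taken as for gcga, of -0.83 to 0.95. The sign rests on the processing: centring on all spots, without loess, gave 0.09. That setting moved the median of all genes to 0.37, so sst1.1 stayed below the median of all genes there too.

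**Figure D2:**
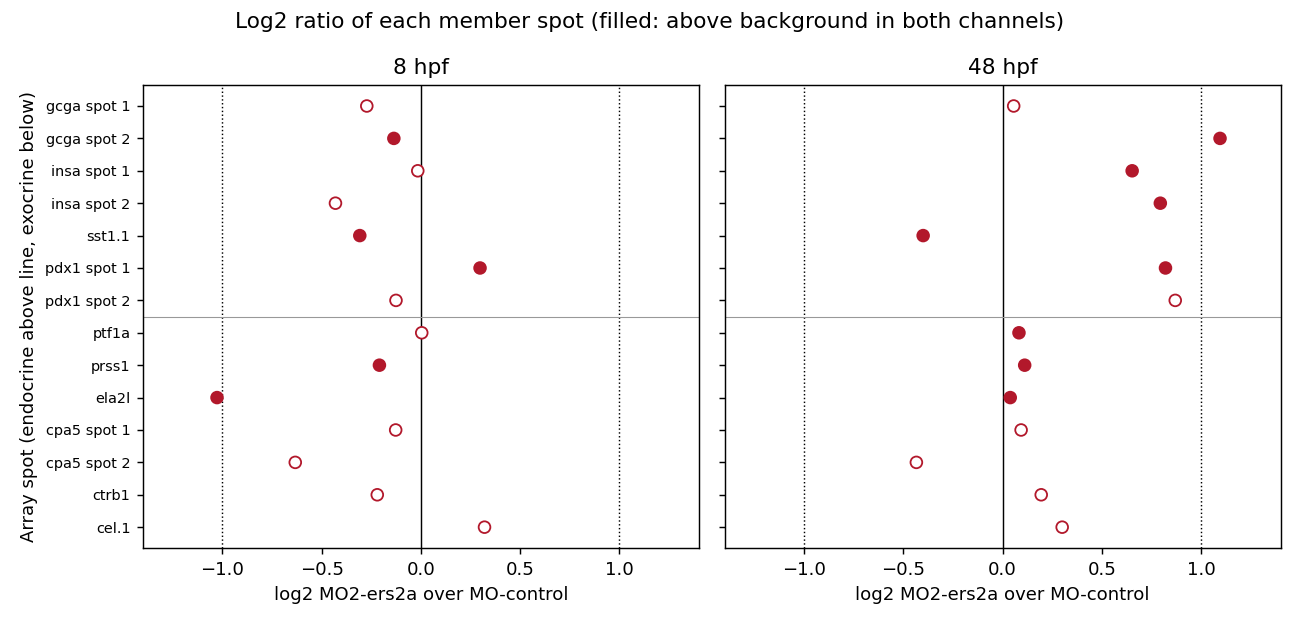
Log2 ratio of MO2-ers2a over MO-control for every spot of the 10 genes at 8 and 48 hpf, 1 array per time, with endocrine genes above the grey line and exocrine genes below it. Filled points were above background in both channels, open points were not, and dotted lines mark 2-fold. At 48 hpf the filled points of gcga, insa and pdx1 lie between 0.65 and 1.1, sst1.1 lies at -0.40, and the filled exocrine points lie between 0.04 and 0.11.

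Of the 6 exocrine genes, 3 were measured in both channels at 48 hpf, and they had log2 ratios between 0.04 and 0.11 with a median of 0.08. None of the 3 reached 2-fold in either direction. All 3 lay within the pooled SD between spots, 0.24, of the median of all genes.

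ptf1a encodes a basic helix-loop-helix factor that is part of the complex driving acinar enzyme genes. It had 564.5 in MO2-ers2a embryos and 345.5 in MO-control embryos, and its log2 ratio was 0.08. prss1, a trypsinogen gene, had 202.0 in MO2-ers2a embryos and 140.0 in MO-control embryos, and its log2 ratio was 0.11. ela2l, an elastase gene, had 91.5 in MO2-ers2a embryos and 85 in MO-control embryos, with a log2 ratio of 0.04. The ela2l control signal lay only just above the limit of 70.1, and a stricter detection limit removed the gene. Signs this close to 0 depend on the processing: centring on the spike-in spots, without loess, gave -0.06 for ptf1a, -0.20 for prss1 and -0.46 for ela2l.

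The other 3 exocrine genes gave no ratio at 48 hpf. cpa5, a carboxypeptidase A gene, had spots with 52.5 and 20.0 in MO2-ers2a embryos, and with 60 and 68 in MO-control embryos. ctrb1, a chymotrypsinogen gene, had 29.0 in MO2-ers2a embryos and 40.0 in MO-control embryos. Both genes passed the Cy5 limit only, and neither allowed a bound above 1-fold. cel.1, a bile salt-dependent lipase gene, had 11 in MO2-ers2a embryos and 20.0 in MO-control embryos and was not above background in either channel.

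Most of these enzyme genes have close relatives beside them. In the RefSeq table ela2l lies next to ela2, cpa5 next to cpa1 and cel.1 next to cel.2, and ctrb1 follows ctrb.2 and ctrb.3. sst1.2 lies close to sst1.1. The files used here hold no probe sequences, so signal from a related transcript cannot be told apart from that of the named gene. ela2, cpa1, cel.2 and ctrb.3 were each below the detection limit in both channels at 48 hpf.

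At 8 hpf, before a pancreas exists, 3 endocrine and 2 exocrine genes were measured. pdx1 was the brightest, with 725.5 in MO2-ers2a embryos and 304.0 in MO-control embryos at 1 spot and a log2 ratio of 0.30. Its second spot was below the limit in both channels, with 15.0 in MO2-ers2a embryos and 44.0 in MO-control embryos. prss1 had 148.0 in MO2-ers2a embryos and 117.0 in MO-control embryos, with a log2 ratio of -0.21. Both ratios are smaller than the pooled SD between spots at this time, 0.32.

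The other measured genes at 8 hpf lay close to the detection limits of 24.4 and 59.9. sst1.1 had 26.0 in MO2-ers2a embryos and 60 in MO-control embryos, with a log2 ratio of -0.31. gcga had 48.5 in MO2-ers2a embryos and 62.0 in MO-control embryos, with a log2 ratio of -0.14, where the authors' deposited table gave 1.69. Measured spots of like brightness had a median of -0.28 for sst1.1 and -0.25 for gcga, and 26.3% of the spots like gcga stood higher than it. The Cy3 limit was the higher one, so spots this dim passed both limits mainly with a relatively high control signal. Their median raw ratios were 0.61 for sst1.1 and 0.66 for gcga, against 1.85 over all measured spots. With no filter on dim spots the median of all genes was 0.01. The filter chooses spots and leaves the ratio of a spot as it is. Without it sst1.1 stood at -0.31 and gcga, over both of its spots, at -0.20. What these negative signs come from was not tested. ela2l had 27.0 in MO2-ers2a embryos and 103.0 in MO-control embryos and was 2.04-fold lower, at -1.03, against a background of 2.25% of all genes past 2-fold downward and 2.32% upward. Spots like ela2l had a median of -0.17. The authors' deposited table gave -3.23 for ela2l, whereas it fell short of 2-fold without background correction, at -0.90, and with centring on all spots, at -0.94. These 3 genes were removed by the stricter detection limit.

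insa at 8 hpf passed the limit in the control at 1 of its spots, with 17.0 in MO2-ers2a embryos and 61.0 in MO-control embryos, a difference of at least 1.33-fold lower. cpa5 likewise passed in the control at 1 spot, with 6.0 in MO2-ers2a embryos and 63.0 in MO-control embryos, at least 1.31-fold lower. Both control signals exceeded the limit of 59.9 by little, and the MO2-ers2a channel was not well above background. Such bounds are also open to dye bias. ptf1a, ctrb1 and cel.1 were below the limit in both channels.

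Levels at both times can be set side by side for each spot after scaling the arrays to a common brightness distribution, as a description of these 2 arrays. At the brighter insa spot the normalized log2 level was 6.31 at 8 hpf, not well above background, and 10.91 at 48 hpf in MO2-ers2a embryos, so it was at least 23.9-fold higher at 48 hpf. In MO-control embryos the same spot stood at 6.74 and 10.11, a 10.4-fold difference. sst1.1 was 8.20-fold higher at 48 hpf than at 8 hpf in MO2-ers2a embryos and 8.74-fold higher in MO-control embryos. The 8 hpf signals of sst1.1 and of insa in the control lay close to the detection limits, so the sizes of these differences are uncertain.

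At the brighter gcga spot the difference between the times was 4.68-fold in MO2-ers2a embryos and 1.99-fold in MO-control embryos. Its control signal at 8 hpf was close to the limit. The other gcga spot, above the limit only in MO2-ers2a embryos at 48 hpf, gave 1.29 in MO2-ers2a embryos and 1.02 in MO-control embryos. ptf1a was at least 5.86-fold higher at 48 hpf in MO2-ers2a embryos and at least 4.45-fold higher in MO-control embryos. insa, sst1.1, gcga and ptf1a gave more signal at 48 hpf under both morpholinos. The brighter pdx1 spot was nearly level, with 48 over 8 hpf at 1.22 in MO2-ers2a embryos and 0.85 in MO-control embryos. So was prss1, at 1.06 in MO2-ers2a embryos and 0.85 in MO-control embryos. ela2l stood at 1.46 in MO2-ers2a embryos and 0.70 in MO-control embryos, with its MO2-ers2a signal at 8 hpf and its control signal at 48 hpf close to the limits.

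**Figure D3:**
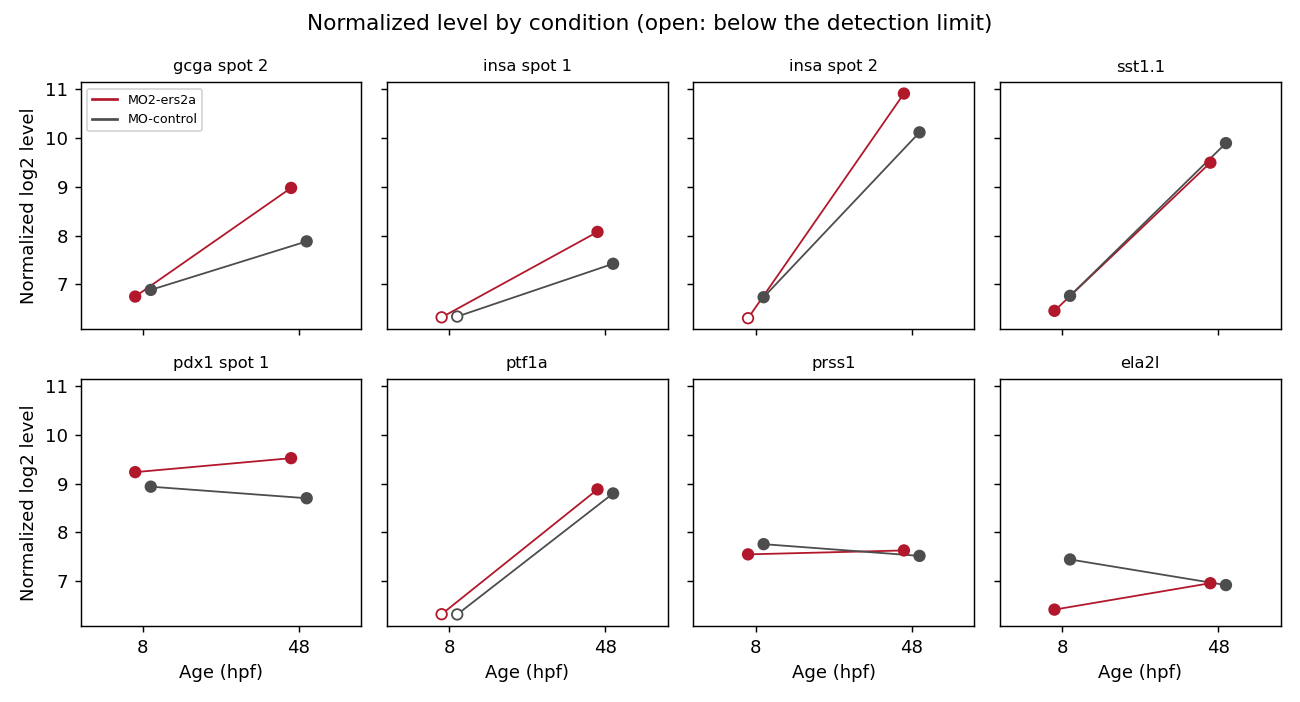
Normalized log2 level of 8 spots at 8 and 48 hpf, MO2-ers2a in red and MO-control in grey, 1 array per time; open points lie below the detection limit, and levels of different probes are not comparable. insa, sst1.1, gcga and ptf1a are higher at 48 hpf under both morpholinos, and the MO2-ers2a point lies above the control point at 48 hpf for gcga, insa and pdx1.

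Most measured transcription factors that specify islet cells lay below 0 at 48 hpf. Of 19 listed, 16 were measured at 48 hpf, 12 of them below 0 and 4 above, with a median of -0.18, where 52.1% of all measured genes and transcripts lay below 0. neurod1, a factor of endocrine and neuronal differentiation, was 2-fold lower, at -1.12, as were 1.25% of all genes, and the next lowest was sox4b at -0.66. The highest were ascl1b, which starts endocrine specification in zebrafish, at 0.67, and insm1b at 0.39. These factors also act in the nervous system, and which tissue the signal came from was not tested. At 8 hpf 12 were measured with a median of 0.12, and ascl1b stood at 1.36, the 1 member past 2-fold, against 2.32% of all genes past 2-fold upward.

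Among 26 listed genes of other islet hormones and of hormone processing, 16 were on the array and 8 were measured at 48 hpf. Of these, 6 lay below 0 and 2 above, with a median of -0.21 and none past 2-fold. Over all measured genes and transcripts, 52.1% lay below 0 and the median was -0.02. The lowest was sst6.1, another somatostatin-family gene, at -0.48, followed by the granule protein gene scg3 at -0.26. The highest were kcnj11, a channel subunit of insulin-secreting cells, at 0.35, and sst2 at 0.09. The second insulin gene, insb, was below the limit in both channels at 48 hpf. RNA came from whole embryos, and which tissue the signal of the 8 measured genes came from was not tested. At 8 hpf insb was measured at -0.04, one of 4 measured genes with a median of 0.12.

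Of 23 other acinar enzyme genes, 17 were on the array, 2 were measured at 48 hpf and 6 passed in the MO2-ers2a channel only. The Cy5 limit was 27.7 and the Cy3 limit 70.1, so a dim spot passed more readily in Cy5. The share of all genes passing in that channel only is not given here, so these 6 are not read as a difference. The trypsin-family gene prss59.1 stood at 0.53 and the elastase gene cela1.4 at 0.62, neither past 2-fold. The prss59.1 value rests on 1 of its 2 spots. The amylase gene amy2a is 1 of the 6 that passed in the MO2-ers2a channel only. Its bound was 1.87-fold upward, which is open to dye bias and likewise not read as a difference. At 8 hpf 5 were measured, with a median of 0.08, and cela1.4 and prss59.1 stood at -0.89 and -0.48. The normalized log2 level of prss59.1 in MO-control embryos was 10.17 at 8 hpf and 7.16 at 48 hpf. That of cela1.4 was 8.92 and 7.99. In MO2-ers2a embryos prss59.1 had 9.69 and 7.70, while cela1.4 had 8.03 and 8.61. Which tissue the 48 hpf signal came from was not tested.

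Factors of pancreatic and foregut progenitors went both ways at 48 hpf. Of 20 listed, 14 were measured, 8 below 0 and 6 above, with a median of -0.10 and none past 2-fold. This is near the 52.1% of all measured genes and transcripts that lay below 0. hnf1bb, a homeodomain factor gene, stood at 0.63 and sox9b, a factor of pancreatic ducts, at 0.32. The hnf1bb value rests on 1 of its 2 spots, and the 2 sox9b spots were unlike, at -0.03 and 0.68. The lowest were prox1a at -0.70 and nr5a2, needed for exocrine tissue in zebrafish, at -0.44. The nr5a2 value also rests on 1 of 2 spots. At 8 hpf 15 were measured, with a median of 0.19 and none past 2-fold.

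Most measured genes listed for the neighbouring endodermal organs lay below 0 at 48 hpf, and which tissue their signal came from was not tested. Of 12 measured liver genes, 9 lay below 0 at 48 hpf, with a median of -0.45, beside 52.1% of all genes below 0 and 1.25% past 2-fold downward. rbp4, the retinol carrier, was 2-fold lower at -1.02, selenop stood at -0.95, and the highest were ces3 at 0.21 and cp at 0.16. Of 7 measured intestinal genes, 5 lay below 0, with a median of -0.14. The lowest were the apolipoprotein gene apoa4a, 2-fold lower at -1.52, and fabp2 at -0.99, and the highest were mttp at 0.05 and fabp1b.1 at 0.02. Some listed genes already gave strong signal in the gastrula. In MO-control embryos at 8 hpf the normalized log2 level was 13.26 for mttp and 12.67 for fabp1b.1, whereas rbp4 did not pass the control limit then. At 8 hpf 6 liver genes had a median of -0.46, with fgb 2-fold lower at -1.39 (2.25% of all genes were), and 6 intestinal genes had a median of 0.13. At 48 hpf the rbp4, ces3 and fabp2 values each rest on 1 measured spot of 2. The fgb value at 8 hpf rests on 1 of its 3 spots, for which the authors' deposited table gave -3.11.

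Genes of amacrine, cerebellar and hindbrain cells, which also use ptf1a, had all 8 measured members below 0 at 48 hpf, where 52.1% of all measured genes and transcripts lay below 0. Their median was -0.64 and none reached 2-fold. barhl2 stood at -0.82 and lhx1a at -0.80, and the highest were pax2a at -0.13 and neurod4 at -0.43. ptf1a itself stood at 0.08. Their part in the ptf1a value was not tested. At 8 hpf 4 of these genes were measured, with a median of 0.14.

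**Figure D4:**
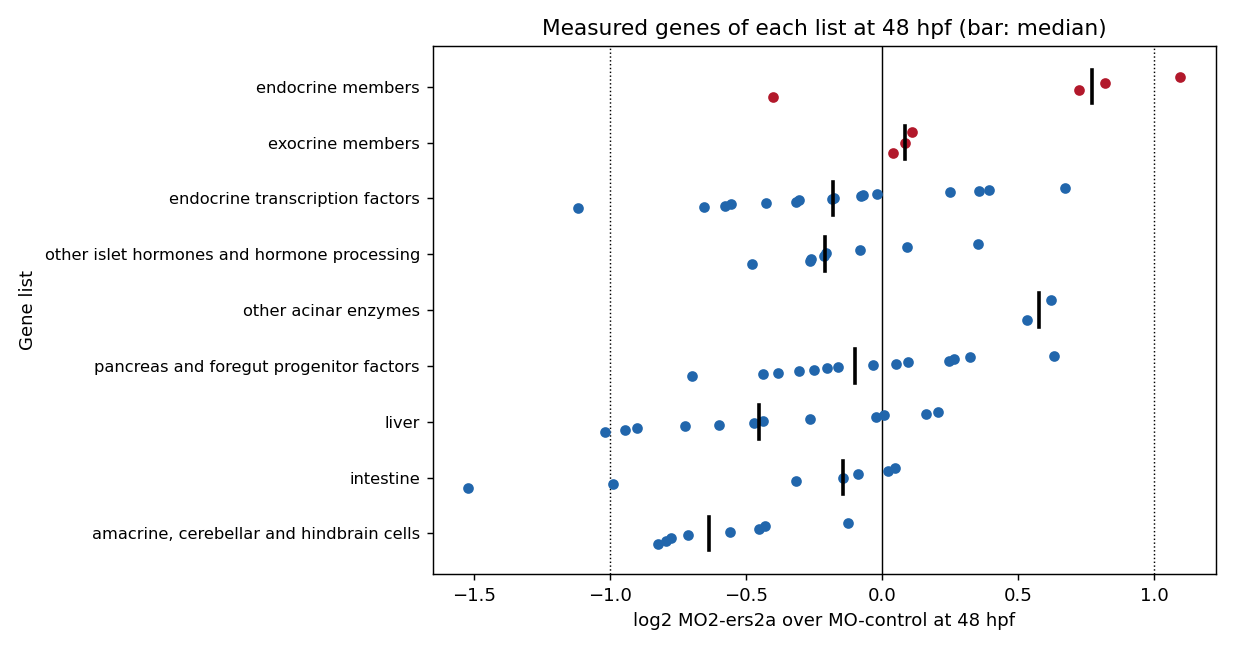
Log2 ratio of MO2-ers2a over MO-control at 48 hpf for each measured gene of each list (1 point a gene, 1 array), with the list's median as a black bar and 2-fold marked by dotted lines. The endocrine members have their median at 0.77, the exocrine members at 0.08, the endocrine transcription factors at -0.18 and the liver genes at -0.45. Other islet hormone and processing genes have theirs at -0.21, and the 2 other acinar enzyme genes measured at 0.58.

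How many genes passed 2-fold over the whole array depended on the normalization, and the centrings below were made without loess. At 48 hpf 212 were higher and 208 lower. Centring on all spots gave 1254 and 84, centring on the spike-in spots 163 and 873, centring on measured spots 278 and 434, and the authors' deposited log ratios 489 and 783. At 8 hpf 356 were higher and 346 lower, against 2490 and 96 with centring on all spots, 136 and 3058 on the spike-in spots and 705 and 1030 in the authors' deposited table. In the authors' deposited table gcga stood at 1.33, pdx1 at 0.89, insa at 0.86 and sst1.1 at -0.62 at 48 hpf.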

How the data were processed

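The deposited intensity values give a median signal and a median local background for every spot and channel (per the file headers) and were made with Agilent Feature Extraction per the submitters' processing notes. Each array has 45220 spots, 43839 of them not controls. The authors' deposited table holds log10 ratios by spot number. Over bright spots these rose with the raw log2 Cy5 over Cy3 ratio with slopes of 0.289 and 0.297 (8 and 48 hpf; Pearson r across spots 0.982 and 0.990), so scale and direction are settled, but the dye normalization is not given in the sources used here. Column medians were 0 at both times. Exact zeros (36.8% and 34.7%) were treated as not measured. Printed values of that table were converted to log2.

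Background correction used normexp with an offset of 50 and was followed by loess normalization within each array (limma 3.58.1, R 4.3.3), with control spots at weight 0; levels across arrays used Aquantile scaling. Values of a gene's measured spots were summarised by their median. For a bound, the bright channel was divided by the dim one, or by the smallest detected signal where that was larger. Normalization was tested on simulated data. Sizes were judged at 2-fold, and no test was made. Python 3.11.15 with pandas 2.3.3 did the rest. A current symbol was assigned to 20501 spots. Members, lists and the detection rule were chosen with earlier results of these data known. All 10 members are named, with the 2 highest and 2 lowest genes of each other list at 48 hpf and those past 2-fold; ela2, cpa1, cel.2, ctrb.3, insb, amy2a and values of list genes at 8 hpf were added after values were seen. Promoter letters planned for a search were not used here.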

Additional observations from a re-analysis of the deposited data

Results flagged for a closer look

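3 of the pancreatic genes had log2 ratios of opposite sign at 8 and 48 hpf, each from 1 array per time, and the difference between times was not tested. For gcga the log2 ratio at 48 hpf was 1.23 above that at 8 hpf, for ela2l it was 1.07 above and for prss1 it was 0.32 above. The 8 hpf signals of gcga and ela2l lay near the detection limits, where spots passed in both channels mainly with a relatively high control signal. The sign of gcga at 8 hpf turned in the authors' deposited table, and that of prss1 at 8 hpf with centring on all spots. At 48 hpf ela2l stood at -0.28 with centring on measured spots and at -0.46 on the spike-in spots, and prss1 at -0.03 and -0.20, so under these settings neither gene differed in sign between the times.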

How the results depend on the processing

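No paired analysis was possible because each time has 1 array, and no replicate could be left out. Of 62 alternative values for single genes at 48 hpf, 52 stayed within the pooled SD between spots of the value reported. At 8 hpf 28 of 42 did. Some of these alternatives repeat the reported value by construction. A gene with 1 measured spot kept its value with the brightest spot and, where not removed, with the stricter filter. A gene with 1 spot in all also kept it with no filter. The counts here and for each gene below therefore overstate how far the settings check one another. At 48 hpf gcga, insa and pdx1 kept their sign under all 9 alternatives (0.58 to 1.47 for gcga, 0.57 to 1.13 for insa, 0.71 to 1.27 for pdx1), and gcga was past 2-fold under 7. sst1.1 kept its sign under 8 of 9 (-0.62 to 0.09). The endocrine median at 48 hpf moved to 1.2 with centring on all spots, and the exocrine median to 0.36 there and to -0.20 with centring on the spike-in spots. These centrings shift the median of all genes, to 0.37 and -0.19 at 48 hpf and to 0.54 and -0.56 at 8 hpf. At 8 hpf the endocrine median was -0.68 with centring on measured spots, -1.21 on the spike-in spots, 0.20 in the authors' deposited table and 0.30 with the stricter filter, which leaves pdx1 alone. The exocrine median was -0.96, -1.49, -1.82 and -0.21 under the same settings and -0.21 with no filter. Genes at least 2-fold higher at 8 hpf numbered 2490 with centring on all spots, 136 on the spike-in spots and 705 in the authors' deposited table; those lower numbered 96, 3058 and 1030, and 633 with centring on measured spots. At 48 hpf those higher numbered 1254 with centring on all spots and 489 in the authors' deposited table; those lower numbered 84 and 783, 873 on the spike-in spots, 434 on measured spots and 384 with an offset of 16. Centring on all spots, on measured spots and on the spike-in spots also left out loess. With centring on measured spots the median of all genes was -0.02 at both times. The cause of these moves was not tested beyond the shifts given.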
